A study of Mus musculus with 33 samples.

Results

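Chaperones bind proteins that are not yet folded. The genes described here encode 7 subunits of CCT, the ring-shaped chaperonin of the cytosol (Tcp1, Cct2, Cct3, Cct4, Cct5, Cct7 and Cct8), and 3 chaperones of the mitochondrial matrix (Hspd1, Hspe1 and Trap1). They were chosen by symbol, and all 10 were found among the 21671 genes of the table. CCT is a pair of stacked rings, each built from one copy of every subunit, and it closes over actin, tubulin and other proteins while they fold. Tcp1 encodes its alpha subunit. Hspd1 encodes HSP60, the barrel of the mitochondrial chaperonin, and Hspe1 encodes HSP10, the lid of that barrel. Trap1 encodes the mitochondrial member of the HSP90 family. Growing cells make more protein and need more folding capacity, and hepatocytes are rich in mitochondria.

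The study asked how MYC and β-catenin act in mouse liver, soon after activation and in tumours. All mice were of strain C57BL/6. In the short-term arm, mice of 6 to 8 weeks received AAV8-TBG-CRE, a viral vector whose TBG promoter drives Cre in hepatocytes, and the liver was collected at day 4. All 4 groups of this arm had the virus, with 5 livers each: WT, beta-cat Ex3 (a β-catenin allele that Cre shortens by exon 3, here Ex3), R26-lslMYC (a MYC transgene at Rosa26 behind a stop that Cre removes, here MYC), and R26-lslMYC/beta-cat Ex3 (here MYC+Ex3). The tumour arm held liver nodules from mice with Alb-CreERT2, a Cre of albumin-expressing cells that 4-hydroxytamoxifen (4-OHT) switches on. There were 3 nodules with R26-lslMYC (MYC tumours) and 3 with R26-lslMYC/beta-catEx3 (MYC+Ex3 tumours). The comparison livers of this arm were 7 WT livers taken at day 4 after 4-OHT. The labels give these 7 mice no Cre allele and give no age or treatment for the nodules, so age, time and Cre cannot be told apart from the tumours.

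Levels are given as RPKM, a read density scaled to gene length and library size. Genes are thus compared per length, and the lengths used are not given. Reads in genes numbered 3.75 to 7.31 M per library at day 4 and 6.65 to 9.82 M in the tumour arm. The members were well covered: the fewest reads behind a member in a library were 295 (Hspe1, day 4), a counting error of 5.82%. The total behind the RPKM differed between the arms. Reads in genes made up a smaller part of that total in the tumour arm, 22.2% to 29.6% of their part in the day 4 livers. For this reason levels are compared within an arm only. The part also differed by group within the tumour arm. On the same scale it was 22.2% to 26.6% in 4-OHT livers, 24.6% to 28.0% in MYC tumours and 25.6% to 29.6% in MYC+Ex3 tumours. The most abundant genes were compressed. The rise of log2 reads per log2 unit of depth was taken among libraries of the same group and keratin set (given below). Its median was 0.27 for the 50 most abundant genes and 1.21 for the others in the day 4 livers. The members lay between, at a median of 0.65, from 0.30 (Hspe1) and 0.34 (Hspd1) to 0.93 (Cct3). In the tumour arm their median was 0.47, against 0.17 and 1.19. In 10 of the 20 day 4 libraries the keratins Krt5, Krt14 and Krt17 summed to 3.95 to 23.8 RPKM, and these libraries had 3.75 to 5.10 M reads. The other 10 had at most 0.40 RPKM of keratin and 4.39 to 7.31 M reads. The keratin-bearing libraries were 3 of 5 in WT, Ex3 and MYC+Ex3 and 1 of 5 in MYC. In the tumour arm, 4-OHT livers 4, 6 and 7 were the lowest of the 7 for each of the 10 members. Their most abundant gene reached 43.3 to 46.1 RPKM against 55.8 to 59.5 in the other 4. The part of reads in genes, on the scale above, was also lowest in livers 4, 6 and 7, at 22.2% to 22.6% against 23.7% to 26.6% in the other 4. The share of this in their low values was not tested.

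The labels were checked on known targets. Axin2, a β-catenin target, was 3.32 ± 0.609 RPKM in WT and 18.4 ± 5.37 in Ex3 livers (SD, n = 5 each). Ncl, a MYC target, was 19.5 ± 3.41 in WT and 62.7 ± 23.2 in MYC livers. Mouse Myc itself changed by 0.55 (limma adjusted p = 0.208) on the log2 scale in MYC livers, and whether the transgene gives reads in that row was not tested. Hepatocyte marker genes, all 7 of them in the table, had median sums of 1462 RPKM in WT, 1499 in Ex3, 1169 in MYC and 1317 in MYC+Ex3 livers, over a range of 961 to 1789.7. In the tumour arm the medians were 284 in 4-OHT livers, 198 in MYC tumours and 238 in MYC+Ex3 tumours, over a range of 167 to 303. Their part in the results was not tested.

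Promoter sequence was examined for the letters that MYC and the heat shock factors are known to bind, because the members move together below. The windows run from 250 bases before to 50 after a start site, from RefSeq on GRCm38.p6, and 9 of the 10 members had one. Cct4 did not. The E-box CACGTG, on both strands, was in the window of 1 of 9 members (Hspd1), and in 8.09% of all genes with a window. The variant CACGCG, searched on both strands, was in 3 of 9 (Cct3, Hspd1 and Hspe1) and in 10.5% of genes. Hspd1 and Hspe1 hold the same single CACGCG site, counted for each of them, and it is not among the sequences shown. A heat shock element, taken as GAA and TTC or TTC and GAA with any 2 bases between, was in 4 of 9 (Cct2, Cct5, Hspd1 and Hspe1) and in 17.0% of genes. Here too Hspd1 and Hspe1 hold the same elements, counted for each of them. Hspd1 and Hspe1 stand head to head on chromosome 1. Hspd1 has a pair of annotated starts, and the stretch between the one outside Hspe1 and the Hspe1 start is 215 bases long, at chr1:55087933-55088147, shown on the plus strand with its run of 3 overlapping heat shock elements in capitals:
Hspd1-Hspe1: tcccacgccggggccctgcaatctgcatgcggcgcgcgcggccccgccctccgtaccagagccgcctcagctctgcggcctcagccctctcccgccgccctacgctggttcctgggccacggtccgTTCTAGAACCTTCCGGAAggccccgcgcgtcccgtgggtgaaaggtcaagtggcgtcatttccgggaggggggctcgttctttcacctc
The other Hspd1 start lies inside Hspe1, 95 bases beyond the Hspe1 start. The next pieces of 30 bases show further matches in capitals, on the strand of their gene: the E-box before that start of Hspd1 (chr1:55088306-55088335, minus strand), the variant before Cct3 (chr3:88296927-88296956, plus strand), and the heat shock elements before Cct5 (chr15:31601862-31601891, minus strand) and Cct2 (chr10:117063399-117063428, minus strand).
Hspd1: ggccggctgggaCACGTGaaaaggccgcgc
Cct3: acattctggccgCACGCGgccgggagcggc
Cct5: acagcggccgaTTCCAGAAgctactctgcg
Cct2: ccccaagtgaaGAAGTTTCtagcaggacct
These are matches of letters only. Binding was not measured.

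In WT livers at day 4 the members were abundant genes. Hspd1, at 144 ± 14.2 RPKM (SD, n = 5), lay above 97.7% of the 13688 genes tested. By RPKM, Cct5 was the highest CCT subunit at 121 ± 8.85 and Cct7 the lowest at 23.6 ± 1.06. The other subunits ran from 42.8 ± 3.08 (Cct3) through 56.8 ± 2.72 (Tcp1), 60.7 ± 2.67 (Cct4) and 64.7 ± 6.14 (Cct2) to 69.6 ± 5.95 (Cct8). Of these, Tcp1, Cct4, Cct2 and Cct8 overlapped with their neighbours in that order. Trap1 was at 88.3 ± 3.46 and Hspe1 at 94.0 ± 11.3, and these also overlapped, as did Cct5 and Hspd1. Cct5 stayed highest and Cct7 lowest in the mean RPKM of each of the 7 groups of the study. Their ratio was 5.13 in WT, 4.95 in Ex3, 4.37 in MYC and 4.34 in MYC+Ex3 livers, and 4.17 in 4-OHT livers, 3.87 in MYC tumours and 3.73 in MYC+Ex3 tumours. In reads the order differed. WT libraries at day 4 held 534 to 868 reads for Cct2, 634 to 884 for Cct7, 858 to 1270 for Cct5 and 1234 to 1556 for Tcp1. The part of the gene lengths in the RPKM order was not tested. The ratio of Hspd1 to Hspe1, barrel to lid, had a mean between 1.46 and 1.56 in each group. Cct6a, the remaining CCT subunit of most tissues, was at 94.8 ± 10.8 RPKM in WT, while Cct6b, its testis relative, was at 0.525 ± 0.261 and was not tested.

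With Ex3 alone, no chaperone gene passed the test at day 4. None of the 10 was called by limma (adjusted p under 0.05, Benjamini-Hochberg over all genes), where 0.132% of all genes were called in either direction. Hspd1 read 127, 131, 152, 156 and 157 RPKM in WT livers and 123, 130.5, 156, 158 and 170.2 in Ex3 livers. Cct3 read 38.5, 40.7, 44.3, 45.02 and 45.5 in WT and 41.7, 44.5, 48.3, 49.7 and 52.1 in Ex3. The 2 groups overlapped for both genes. The log2 changes ran from -0.07 (Cct4, 95% interval -0.27 to 0.14) to 0.14 (Cct3, -0.07 to 0.35), so a rise of Cct3 of the size seen with MYC lies outside its interval. The same holds for Cct4, whose change with MYC was 0.42. It is not stated for the remaining members, whose changes with MYC were smaller than that of Cct3. None of the members had an unadjusted p under 0.05.

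With MYC alone, most CCT subunits were higher at day 4. Of the 10 members, 6 were called higher and none lower, all of them CCT subunits: Cct2, Cct3, Cct4, Cct5, Cct7 and Cct8. For comparison, 16.9% of all genes were called higher. In whole tissue, more RNA per cell and more cells of a kind cannot be told apart. Every MYC liver was above every WT liver for 4 members (Cct2, Cct3, Cct4 and Cct7), as for 10.9% of all genes. Cct3 read 38.5, 40.7, 44.3, 45.02 and 45.5 RPKM in WT livers and 55.1, 62.9, 71.8, 77.0 and 79.0 in MYC livers, with no overlap. Its log2 change, on the scale of log2(RPKM + 1), was 0.67 ± 0.10 (SE; limma adjusted p = 7.57e-05), a 1.59-fold rise.

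Cct2 read 57.1, 62.1, 62.9, 68.7 and 72.9 in WT and 79.8, 97.9, 103, 104 and 117 in MYC livers, a log2 change of 0.62 ± 0.09 (SE; limma adjusted p = 7.85e-05). Cct7, the subunit lowest in RPKM, read 22.5, 22.8, 23.4, 24.3 and 25.1 in WT and 31.0, 34.1, 35.5, 39.0 and 43.5 in MYC livers, a change of 0.60 ± 0.09 (SE; limma adjusted p = 3.75e-05). In both genes the lowest MYC liver stood above the highest WT liver. Cct4 read 56.8, 59.3, 61.4, 62.2 and 63.7 in WT and 69.0, 74.5, 79.0, 83.1 and 108 in MYC livers, a change of 0.42 ± 0.10 (SE; limma adjusted p = 0.00358), again with the groups apart. Cct5 read 109, 118, 119, 128 and 131 in WT and 121, 153, 158, 169 and 201 in MYC livers, a change of 0.38 ± 0.11 (SE; limma adjusted p = 0.0159). Its lowest MYC liver lay within the WT range. Cct8 read 60.8, 66.0, 72.7, 74.0 and 74.3 in WT and 70.0, 82.1, 84.7, 93.5 and 108 in MYC livers, a change of 0.32 ± 0.10 (SE; limma adjusted p = 0.0299), with the lowest MYC liver inside the WT range too.

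Tcp1 and the mitochondrial chaperones did not pass the test with MYC alone. Tcp1 read 53.4, 54.5, 57.9, 58.7 and 59.7 RPKM in WT and 53.2, 66.2, 69.2, 69.6 and 71.3 in MYC livers, where 1 liver was below all WT livers. Its log2 change was 0.20 (95% interval 0.04 to 0.37, limma adjusted p = 0.0662). Hspd1 read 142, 166, 182, 201 and 223 in MYC livers against the WT values above, a change of 0.33 (95% interval 0.06 to 0.59, limma adjusted p = 0.0705). Its lowest MYC liver lay within the WT range. Hspe1 read 82.4, 86.2, 89.2, 106 and 106 in WT and 89.1, 107, 109, 130.1 and 156 in MYC livers, a change of 0.31 (95% interval 0.02 to 0.60, limma adjusted p = 0.118). Trap1 read 84.4, 87.0, 87.9, 88.6 and 93.8 in WT and 82.3, 96.0, 97.2, 98.8 and 110.0 in MYC livers, a change of 0.13 (95% interval -0.05 to 0.30, limma adjusted p = 0.312). For Tcp1, Hspd1 and Hspe1 the intervals lie above 0.

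One MYC liver was low and another high for the whole set. MYC replicate 5 was the lowest of its group for all 10 members and the deepest of the group at 6.69 M reads. This library also held RNA of both sexes, with the female marker Xist at 86.1 RPKM and the male marker Ddx3y at 4.74. In the other day 4 libraries with high Xist, Ddx3y was at most 0.134 RPKM. The part of this in its low values was not tested. MYC replicate 4 was the highest for all 10, had 4.54 M reads and was the single keratin-bearing library of the group. Without replicate 5, Tcp1 (limma adjusted p = 0.00415), Hspd1 (0.0193) and Hspe1 (0.036) passed as well. Without replicate 4, Cct5 (0.0519) and Cct8 (0.0914) no longer passed. Cct8 also failed without MYC replicate 1 or 3 or WT replicate 1 or 3. Within the keratin-free libraries (4 MYC, 2 WT), Cct2, Cct3, Cct4 and Cct7 were called, where 946 of all genes were higher. With the keratin set as a term 9 members passed, all but Trap1, where 2437 of all genes were higher. The keratin-bearing libraries hold 1 MYC liver, so no separate fit was run on them, and Cct3 was 79.0 RPKM in that liver against a mean of 42.6 in the 3 keratin-bearing WT livers.

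The scale of the libraries also moved the calls. The median log2 change of all genes was 0.07 for MYC against WT, with 2313 genes higher and 734 lower. After rescaling each library by its median ratio, these counts were 1882 and 1302, and 3 members stayed called, Cct2 (0.51), Cct3 (0.57) and Cct7 (0.50). With depth as a term 9 members were called, where 2693 genes were higher and 1112 lower. With rescaling and depth together 8 members were called, where 2201 genes were higher and 1852 lower. Quantile normalization, which gives each library the same distribution of values, called 9 members, all but Tcp1, while 1809 genes were higher and 1782 lower. These last 3 settings were chosen after seeing the data. Cct2, Cct3 and Cct7 were called under each of the settings named here.

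**Figure D1:**
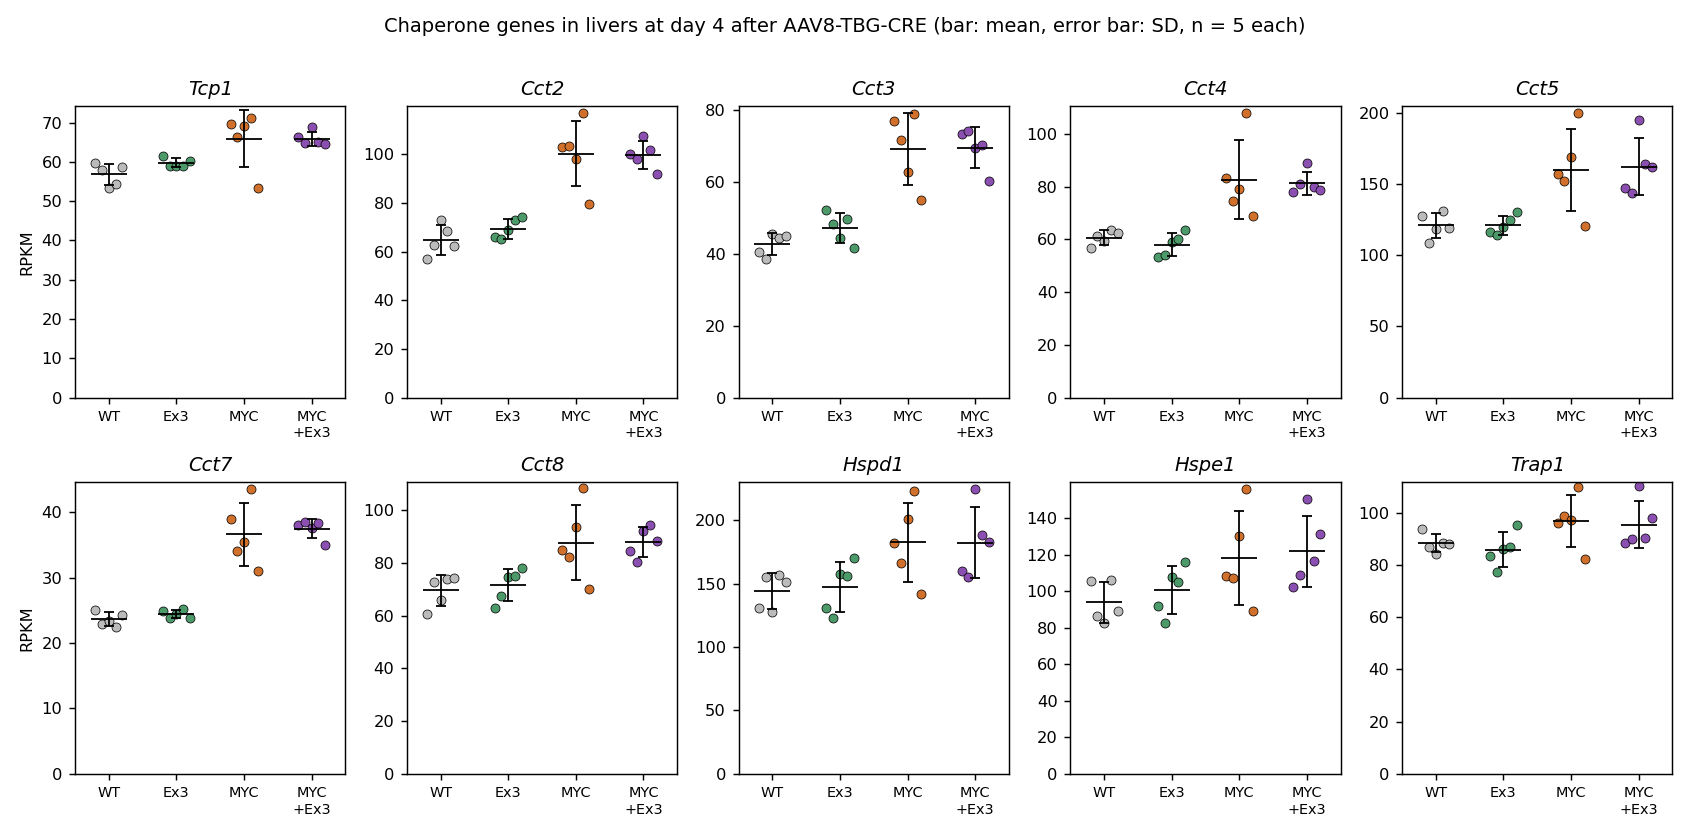
RPKM of the 10 genes in each day 4 liver, by group (points: livers; bar and error bar: mean and SD, n = 5). MYC and MYC+Ex3 livers lie above all WT livers for Cct2, Cct3, Cct4 and Cct7.

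In MYC+Ex3 livers the CCT subunits were again higher than in WT. Against WT, the same 6 CCT subunits were called higher, where 17.9% of all genes were. Every MYC+Ex3 liver was above every WT liver for 7 members, against 13.5% of all genes, and the 3 that overlapped were the mitochondrial chaperones. Cct3 read 60.2, 69.6, 70.4, 73.5 and 74.4 RPKM, a change of 0.69 ± 0.10 (SE; limma adjusted p = 4.33e-05). Cct7 read 35.0, 37.5, 38.0, 38.3 and 38.5, a change of 0.64 ± 0.09 (SE; limma adjusted p = 1.31e-05). Both stood clear of the WT values given above. The others called were Cct2 (0.62), Cct4 (0.42), Cct5 (0.42) and Cct8 (0.33). Cct2 read 91.7 to 107, Cct4 78.1, 78.8, 80.0, 80.9 and 88.8 and Cct5 144, 147, 162, 165 and 195. Cct8 read 80.4, 84.4, 88.1, 92.1 and 94.2 and its call was lost without MYC+Ex3 replicate 4 (limma adjusted p = 0.054) or WT replicate 1 (0.0579).

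Tcp1 read 64.5, 64.8, 65.1, 66.3 and 68.8 RPKM in MYC+Ex3 livers, all above WT, a change of 0.21 (95% interval 0.05 to 0.37, limma adjusted p = 0.0542). Hspd1 read 155, 160.2, 183, 189 and 225, a change of 0.33 (95% interval 0.06 to 0.59, limma adjusted p = 0.0655). Hspe1 read 102, 109, 116, 131 and 150.3, a change of 0.36 (95% interval 0.07 to 0.66, limma adjusted p = 0.0634). The lowest liver of each lay inside the WT range. Trap1 read 88.6, 90.0, 90.4, 97.9 and 110.2, a change of 0.11 (95% interval -0.07 to 0.28, limma adjusted p = 0.398). Tcp1, Hspd1 and Hspe1 passed when MYC replicate 4 or 5 was left out, which changes only the shared estimate of the spread. Within the keratin-bearing libraries (3 against 3) 8 members were called, all but Tcp1 and Trap1, where 1967 of all genes were higher. Within the keratin-free ones (2 against 2) Cct2, Cct3, Cct4 and Cct7 were called, where 1883 of all genes were higher. After rescaling by the median ratio the calls were Cct2, Cct3 and Cct7, where 2052 of all genes were higher. WT livers are shared by the comparisons with MYC, Ex3 and MYC+Ex3.

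Between MYC+Ex3 and MYC livers no difference passed the test: 0 of 10 members were called, against 0.19% of all genes. The log2 changes ran from -0.02 (Trap1) to 0.05 (Hspe1), and the 95% interval of Cct3 was -0.19 to 0.23. Over the 10 members the intervals reached from -0.26 to 0.35. Adding MYC to Ex3 raised 6 members, against 16.4% of all genes: Cct7 (0.60), Cct3 (0.55), Cct2 (0.52), Cct4 (0.48), Cct5 (0.41) and Cct8 (0.29, limma adjusted p = 0.0469). Cct8 kept its call in 4 of 20 fits that left out a library, and lost it without any 1 of the other 16. After rescaling by the median ratio, and within the keratin-free libraries, 4 members were called for MYC+Ex3 against Ex3 (Cct2, Cct3, Cct4 and Cct7). Of all genes, 1940 and 1654 were higher there. Within the keratin-bearing libraries 5 members were called, the same 4 and Cct5, where 1395 of all genes were higher. With depth as a term or quantile normalization 9 members were called, all but Tcp1, where 2608 and 1889 of all genes were higher. The test of whether MYC acts differently with Ex3 called 0 of 10 members and 0% of all genes. Its values ran from -0.12 (Cct3) to 0.06 (Cct4). None of the members had an unadjusted p under 0.05 in this test or between MYC+Ex3 and MYC livers.

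In tumours all 10 members were higher than in 4-OHT livers, with the CCT subunits other than Tcp1 ahead of the mitochondrial chaperones. For MYC tumours, 10 of 10 were called higher, against 36.2% of all genes, and 6 had every tumour above every 4-OHT liver (Cct2, Cct3, Cct4, Cct5, Cct7 and Cct8), as 26.3% of all genes did. Cct3 was 8.56 to 12.9 (median 11.0) RPKM in 4-OHT livers and 14.8, 17.1 and 22.9 in MYC tumours, a change of 0.72 ± 0.15 (SE; limma adjusted p = 0.00124). Cct4 was 10.6 to 14.9 (median 12.5) in 4-OHT livers and 16.7, 19.9 and 26.8 in MYC tumours, a change of 0.70 ± 0.15 (SE; limma adjusted p = 0.00136). For both the lowest tumour exceeded the highest liver. Cct7 was 4.59 to 6.50 (median 5.69) in 4-OHT livers and 7.75, 9.49 and 9.86 in MYC tumours, a change of 0.62 ± 0.11 (SE; limma adjusted p = 5.33e-04). Cct2 was 12.7 to 17.8 (median 15.6) in 4-OHT livers and 20.7, 23.9 and 27.8 in MYC tumours, a change of 0.62 ± 0.13 (SE; limma adjusted p = 0.00175). The groups stayed apart. Cct8 was 12.1 to 17.1 (median 14.1) in 4-OHT livers and 18.3, 21.3 and 27.0 in MYC tumours, a change of 0.60 ± 0.13 (SE; limma adjusted p = 0.00227). Cct5 was 18.2 to 27.8 (median 23.7) in 4-OHT livers and 28.7, 33.3 and 43.1 in MYC tumours, a change of 0.58 ± 0.16 (SE; limma adjusted p = 0.00702).

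Tcp1 and the mitochondrial chaperones overlapped between MYC tumours and 4-OHT livers. Tcp1 was 10.3 to 15.04 (median 11.9) RPKM in 4-OHT livers and 14.95, 16.1 and 19.4 in MYC tumours, a change of 0.44 ± 0.13 (SE; limma adjusted p = 0.00969). Hspd1 was 22.4 to 33.5 (median 28.5) in 4-OHT livers and 31.1, 34.8 and 43.9 in MYC tumours, a change of 0.38 ± 0.15 (SE; limma adjusted p = 0.0446). In each the lowest tumour fell below the highest liver. Hspe1 was 13.2 to 22.4 (median 19.5) in 4-OHT livers and 21.2, 25.4 and 28.4 in MYC tumours, a change of 0.42 ± 0.16 (SE; limma adjusted p = 0.0372). Trap1 was 13.04 to 19.2 (median 16.3) in 4-OHT livers and 18.2, 19.9 and 30.1 in MYC tumours, a change of 0.44 ± 0.17 (SE; limma adjusted p = 0.0406). Trap1 was high in 1 tumour. That tumour, MYC replicate 1, was the highest of its group for all 10 members and the shallowest of them at 6.67 M reads. Without it Hspd1 (limma adjusted p = 0.188), Hspe1 (0.131) and Trap1 (0.249) no longer passed. Hspd1 kept its call in 5 of 13 fits that left out a library, Hspe1 in 8 and Trap1 in 6. Each was also lost without MYC tumour replicate 3 or without 4-OHT liver 4, 6 or 7. Hspd1 was further lost without 4-OHT liver 2 or MYC+Ex3 tumour 2 or 3, and Trap1 without 4-OHT liver 2 or MYC+Ex3 tumour 2. Tcp1 and the 6 other subunits were called in 13 of 13.

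MYC+Ex3 tumours were also higher than 4-OHT livers in all 10. Of the members, 10 of 10 were called higher against 42.3% of all genes, and 9 had every tumour above every 4-OHT liver, all but Tcp1, against 38.2% of all genes. Cct3 was 17.7, 19.8 and 20.4 RPKM, a change of 0.81 ± 0.15 (SE; limma adjusted p = 2.95e-04), a 1.76-fold rise. Cct2 was 24.1, 28.3 and 30.5, a change of 0.81 ± 0.13 (SE; limma adjusted p = 1.37e-04). These were the largest changes among the 10. Cct7 was 9.01, 10.1 and 10.6, Cct4 18.5, 22.5 and 23.6, Cct8 21.9, 24.97 and 26.0 and Cct5 32.9, 38.5 and 39.2, with changes of 0.74, 0.74, 0.74 and 0.67. Hspd1 was 34.1, 39.9 and 40.2, a change of 0.45 ± 0.15 (SE; limma adjusted p = 0.0176). Hspe1 was 23.0, 26.6 and 27.1, a change of 0.46 ± 0.16 (SE; limma adjusted p = 0.02). The lowest tumour of both lay just above the highest liver. Trap1 was 20.2, 22.2 and 24.5, a change of 0.44 ± 0.17 (SE; limma adjusted p = 0.0331). Tcp1 was 14.8, 17.1 and 17.7, a change of 0.43 ± 0.13 (SE; limma adjusted p = 0.00929). Without MYC+Ex3 tumour replicate 2 or 3 the calls of Hspd1, Hspe1 and Trap1 were lost, and that of Trap1 also without 4-OHT liver 4, 6 or 7.

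The size of the tumour changes depends on the scale. The median log2 change of all genes was 0.19 in MYC tumours and 0.23 in MYC+Ex3 tumours. After rescaling by the median ratio these medians were 0.01 and 0.05, and the members were called 6 of 10 in each, the CCT subunits other than Tcp1. Hspd1 was then 0.23 in MYC+Ex3 tumours (limma adjusted p = 0.124) and Cct3 0.60 (9.03e-04). The split of all genes went from 4286 higher and 1621 lower to 3212 and 2764 in MYC tumours, and from 5011 and 2178 to 4018 and 3211 in MYC+Ex3 tumours. Per reads in genes the medians of all genes were 0.08 and 0.09, and 10 and 9 members were called. All genes then split into 3815 higher and 2364 lower in MYC tumours, and 4281 and 3010 in MYC+Ex3 tumours. Under quantile normalization, and with depth as a term with or without rescaling, 10 of 10 were called in each. Of all genes, quantile normalization called 3400 higher in MYC tumours and 3982 in MYC+Ex3 tumours. Depth as a term called 4206 and 4913, and depth with rescaling 3326 and 4053. With the 4 4-OHT livers whose titles carry S14 alone, 6 and 6 were called, where 3147 and 4173 of all genes were higher. With the 3 of S15, 7 and 8 were called, where 3359 and 4355 of all genes were higher. Whether these titles mark a batch is not given. Sex as a term left 7 calls in MYC tumours, all of which were male by Ddx3y, and 10 in MYC+Ex3 tumours. With that term 3727 and 4910 of all genes were higher.

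**Figure D2:**
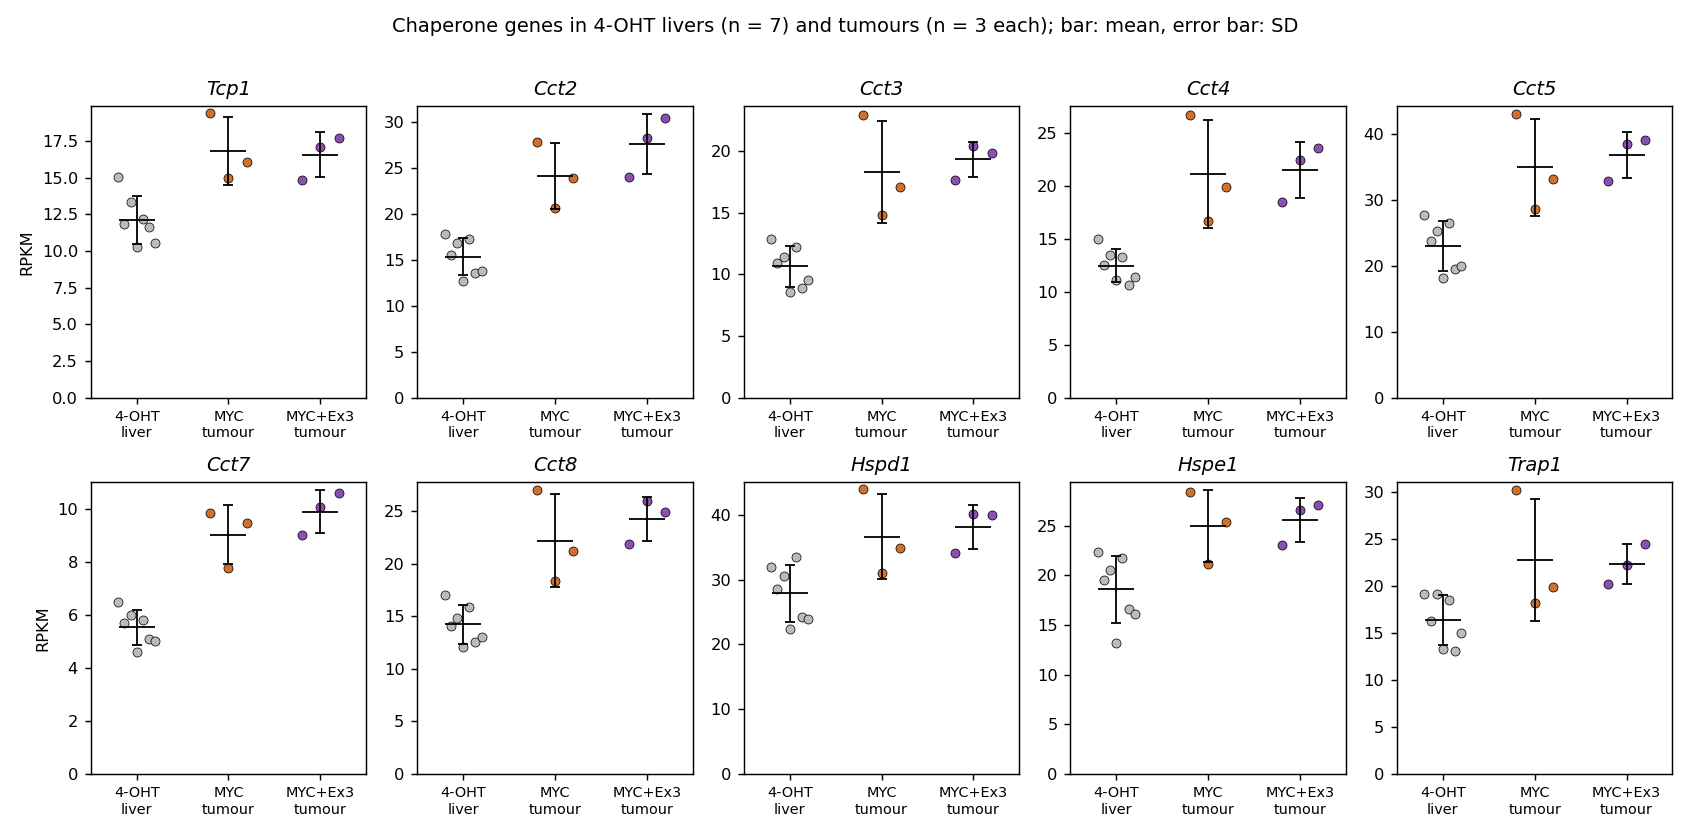
RPKM of the 10 genes in the 4-OHT livers (7) and tumours (3 and 3), points for samples, bar and error bar for mean and SD. The CCT subunits other than Tcp1 stand above all 4-OHT livers in both kinds of tumour.

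Between the tumours, Ex3 made no difference that passed the test: 0 of 10 members were called, against 4.13% of all genes. Cct2 had the largest value at 0.19 (95% interval -0.15 to 0.53, limma adjusted p = 0.593) and Tcp1 the lowest at -0.02 (95% interval -0.34 to 0.30, limma adjusted p = 0.974). With 3 tumours each, the intervals of the members reached from -0.42 to 0.53. None of the members had an unadjusted p under 0.05. The 2 tumour comparisons share their 4-OHT livers.

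**Figure D3:**
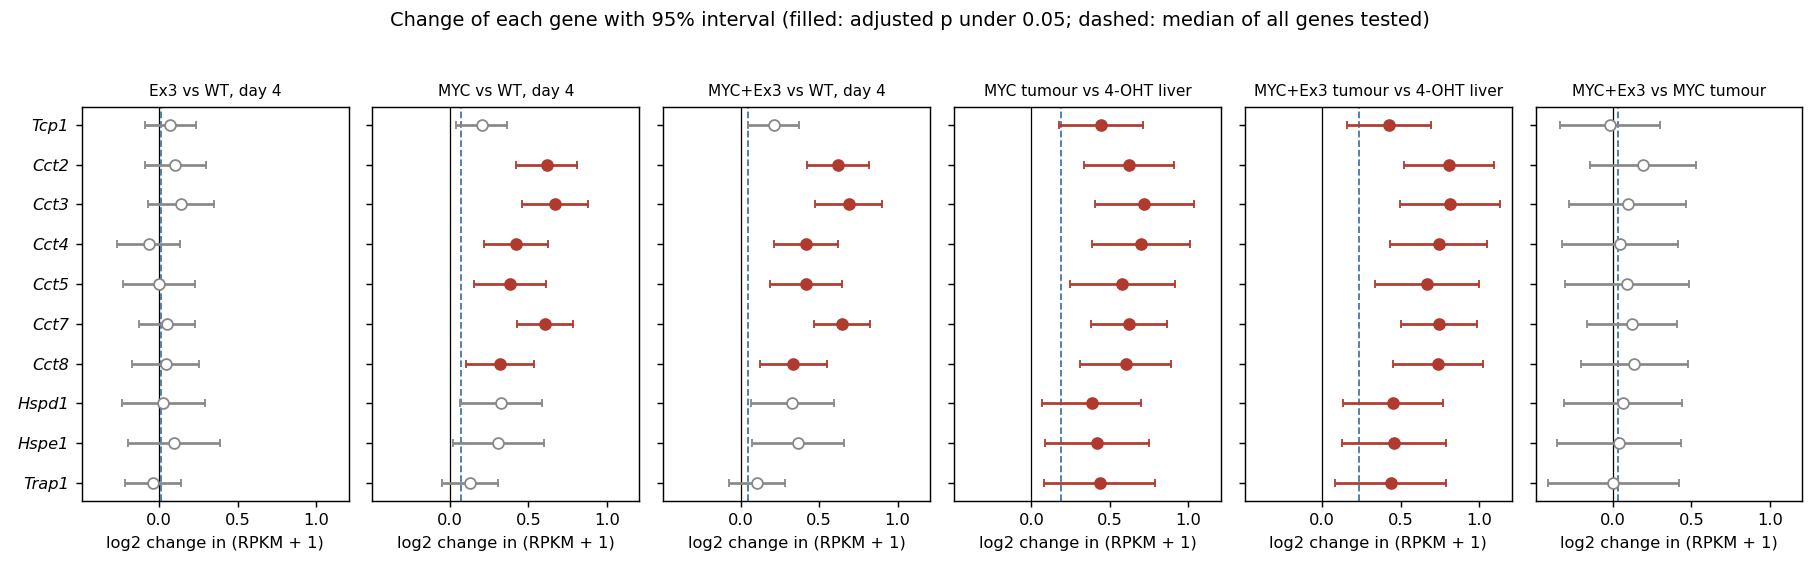
Log2 change of each gene with its 95% interval in 6 comparisons (filled points passed the test; the dashed line is the median of all genes tested). The changes sit around 0 for Ex3 alone, and Cct2, Cct3 and Cct7 lead the rise in MYC livers.

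The members differed in how far they rose. In MYC livers the 7 CCT subunits had a median log2 change of 0.42, from 0.20 (Tcp1) to 0.67 (Cct3), and the mitochondrial chaperones 0.31, from 0.13 (Trap1) to 0.33 (Hspd1), where all genes had 0.07. In MYC tumours the medians were 0.62 and 0.42, and in MYC+Ex3 tumours 0.74 and 0.45. Tcp1 had the smallest change of the CCT subunits in each comparison of MYC with a control. The difference between the 2 families was not tested. In the day 4 livers Hspd1, Hspe1 and Cct5 had the weakest rise of reads with depth, at 0.34, 0.30 and 0.45, and Cct3, with the largest change, had the strongest. In the tumour arm Cct3 had a slope of 0.35 and again the largest change. The part of compression in these changes was not tested. The members moved together across libraries. Their levels, as log2(RPKM + 1), correlated with a median Pearson r of 0.81 over 45 pairs in the 20 day 4 livers, and 0.62 once group means were removed. In the tumour arm the medians were 0.96 and 0.94 over 13 libraries. The pairs share libraries, depth and scale, so these are descriptions.

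**Figure D4:**
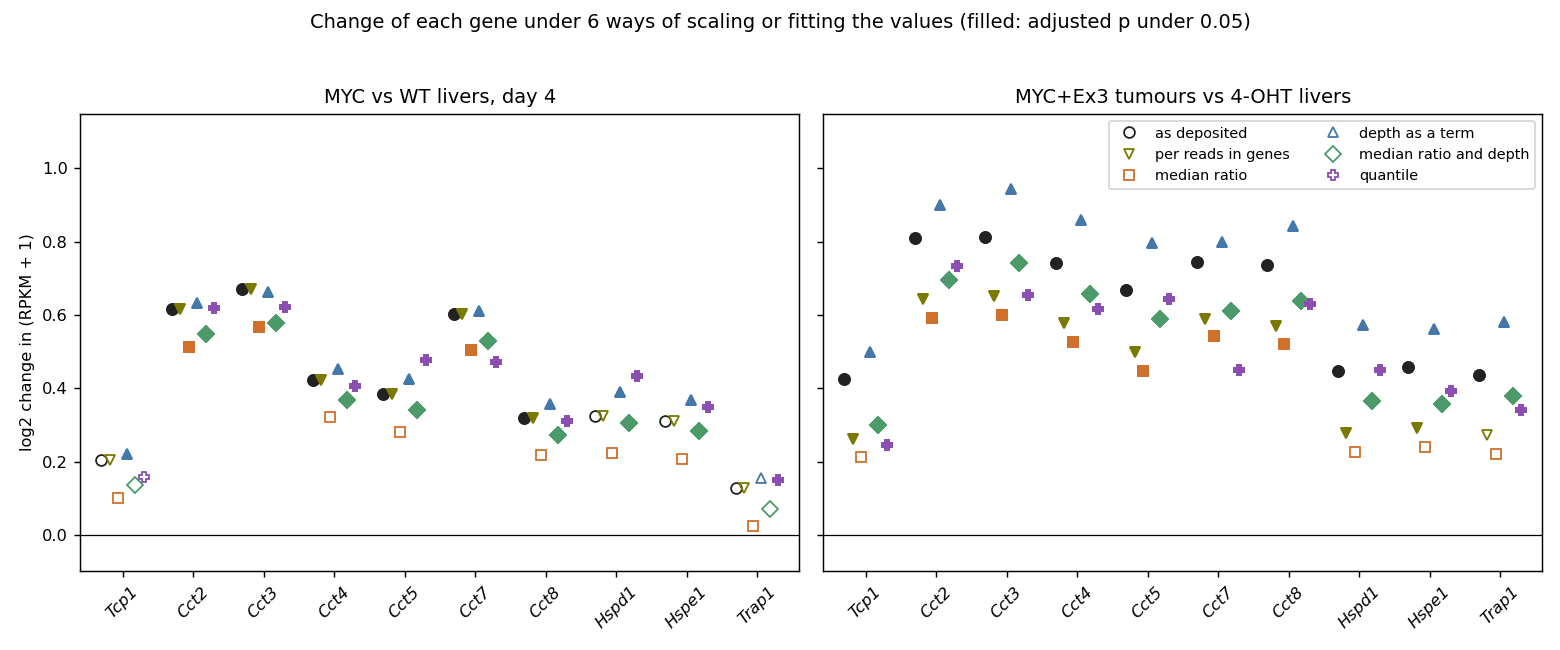
Log2 change of each gene as deposited and under 5 other ways of scaling or fitting, for MYC livers and MYC+Ex3 tumours (filled points passed the test). Rescaling by the median ratio lowers each value in both panels, and Cct3 and Cct2 stay highest there.

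The genes nearest to the members in pattern were chosen by their Pearson correlation with the mean of the 10 standardised levels, among named genes with a mean of at least 5 RPKM, on the log2(RPKM + 1) scale. Over the 20 day 4 livers the 10 nearest of 9108 genes were Rps12 (r = 0.979), Eif5a, Rsl1d1, Rps9, Gas5, Rps3, Nudcd2, Rpl10a, Npm1 and Tomm20 (0.965). Over the 13 libraries of the tumour arm the 5 nearest of 5250 were Eif3i (0.995), Rpl10a, Eef1b2, Gps1 and Prkar2a. By the same measure Trap1 was the member least like the rest, at 0.847 and 0.952.

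Around the members, most genes of mitochondrial protein import were higher. These encode parts of the TOM and TIM import machinery, and the products of Hspd1, Hspe1 and Trap1 are themselves imported. In MYC livers 11 of 13 were called higher and none lower, where 16.9% of all genes were higher, with a median log2 change of 0.62 against 0.07 for all genes, and Timm50, an import receptor, had the largest at 1.12 ± 0.19 (SE; limma adjusted p = 2.19e-04). In MYC+Ex3 tumours 13 of 13 were higher, against 42.3% of all genes, with a median of 0.92 against 0.23, led by Tomm40, the outer channel, at 1.12 ± 0.16 (SE; limma adjusted p = 3.56e-05). Other mitochondrial chaperones were mixed in MYC livers, with 2 of 7 higher and 1 lower, against 16.9% of all genes higher. Hscb, which helps to place iron-sulphur clusters, rose by 0.79 ± 0.25 (SE; limma adjusted p = 0.0261), and Grpel2, an exchange factor of mitochondrial HSP70, was at -0.55 ± 0.18 (SE; limma adjusted p = 0.029). In MYC+Ex3 tumours 6 of 7 were higher, against 42.3% of all genes, Grpel2 among them at 0.49 ± 0.13 (SE; limma adjusted p = 0.00566) and Hscb at 0.97 ± 0.19 (SE; limma adjusted p = 4.85e-04). In MYC+Ex3 livers 1 of these 7 was higher and 0 lower, where 17.9% of all genes were higher, and Grpel2 was at -0.22. In MYC tumours 3 of 7 were higher, against 36.2% of all genes, and Grpel2 was at 0.13. Whether Grpel2 differed between the arms was not tested. Of 10 mitochondrial proteases, 3 were higher in MYC livers (16.9% of all genes) and 7 in MYC+Ex3 tumours (42.3% of all genes), led by Htra2 in both (1.09 and 1.52).

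On the cytosolic side, Cct6a rose with its partner subunits, by 0.46 ± 0.11 (SE; limma adjusted p = 0.00468) in MYC livers and 0.72 ± 0.14 (SE; limma adjusted p = 5.61e-04) in MYC+Ex3 tumours. Of 9 genes for prefoldin, which hands actin and tubulin to CCT, and for CCT cofactors, 1 was higher in MYC livers, against 16.9% of all genes, the prefoldin subunit Pfdn4 at 1.02 ± 0.25 (SE; limma adjusted p = 0.0056). In MYC+Ex3 tumours 6 of 9 were higher, against 42.3% of all genes, again led by Pfdn4 (1.32). Of 17 genes for proteins that CCT folds, 7 were higher in MYC livers, against 16.9% of all genes, led by Cdc20, an activator of mitotic exit, at 4.53 ± 0.54 (SE; limma adjusted p = 9.82e-06). Of the 16 tested in MYC+Ex3 tumours 9 were higher, against 42.3% of all genes, led by the mitotic kinase Plk1 at 1.92 ± 0.23 (SE; limma adjusted p = 9.17e-06). Proliferation markers moved with these clients: their summed RPKM was 57.4 to 75.8 in WT, 66.4 to 190.2 in Ex3, 264 to 558 in MYC and 341 to 511 in MYC+Ex3 livers, and 29.2 to 52.1 in 4-OHT livers against 89.7 to 172 in the tumours. All 8 markers were in the table. The part of dividing cells in the CCT changes was not tested.

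Other cytosolic and ER chaperones, on a list that also holds the heat shock factor Hsf1, were called higher in part. In MYC livers 5 of 16 were higher and none lower, against 16.9% of all genes higher, with a median of 0.27 against 0.07. Hsf1, itself not a chaperone, had the largest change at 0.74 ± 0.24 (SE; limma adjusted p = 0.033). In MYC+Ex3 livers 3 of 16 were higher, against 17.9% of all genes, and in MYC tumours 4 of the 15 tested, against 36.2%. In MYC+Ex3 tumours 6 of the 15 tested were higher, a share close to the 42.3% of all genes, with a median of 0.26 against 0.23, and Hsf1 was at 0.96. Of the mitochondrial stress factors, Atf4 was -0.07, Atf5 -0.10 and Ddit3 0.03 in MYC livers, and none passed. In MYC+Ex3 tumours Atf4 rose by 0.37 ± 0.15 (SE; limma adjusted p = 0.0468), while Atf5 (-0.05) and Ddit3 (0.16) did not pass. In Ex3 livers none of the genes on these lists was called. Summed marker levels of other cells also differed in the tumour arm. Kupffer cell genes, all 6 detected, summed to 77.3 to 104 RPKM in 4-OHT livers and 19.2 to 79.4 in tumours, and endothelial genes, also 6, to 40.5 to 68.1 and 23.3 to 37.3. Erythroid genes summed to 46.1 to 54.4 in MYC+Ex3 tumours against 12.7 to 29.8 in 4-OHT livers, with 10.2 to 42.8 in MYC tumours. In MYC+Ex3 tumours 3 further sums were below all 4-OHT livers: cholangiocyte genes at 3.64 to 8.43 against 9.96 to 14.7, stellate cell and fibroblast genes at 22.4 to 28.4 against 32.6 to 41.9, and T and B cell genes at 2.47 to 3.19 against 4.69 to 7.72, with Cd3e under 0.1. In MYC tumours these 3 sums overlapped with 4-OHT livers, at 6.68 to 19.6, 24.7 to 45.2 and 1.71 to 6.55. Keratins Krt5, Krt14 and Krt17 were under 0.1 RPKM throughout that arm. The part of these cells in the tumour changes was not tested.

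**Figure D5:**
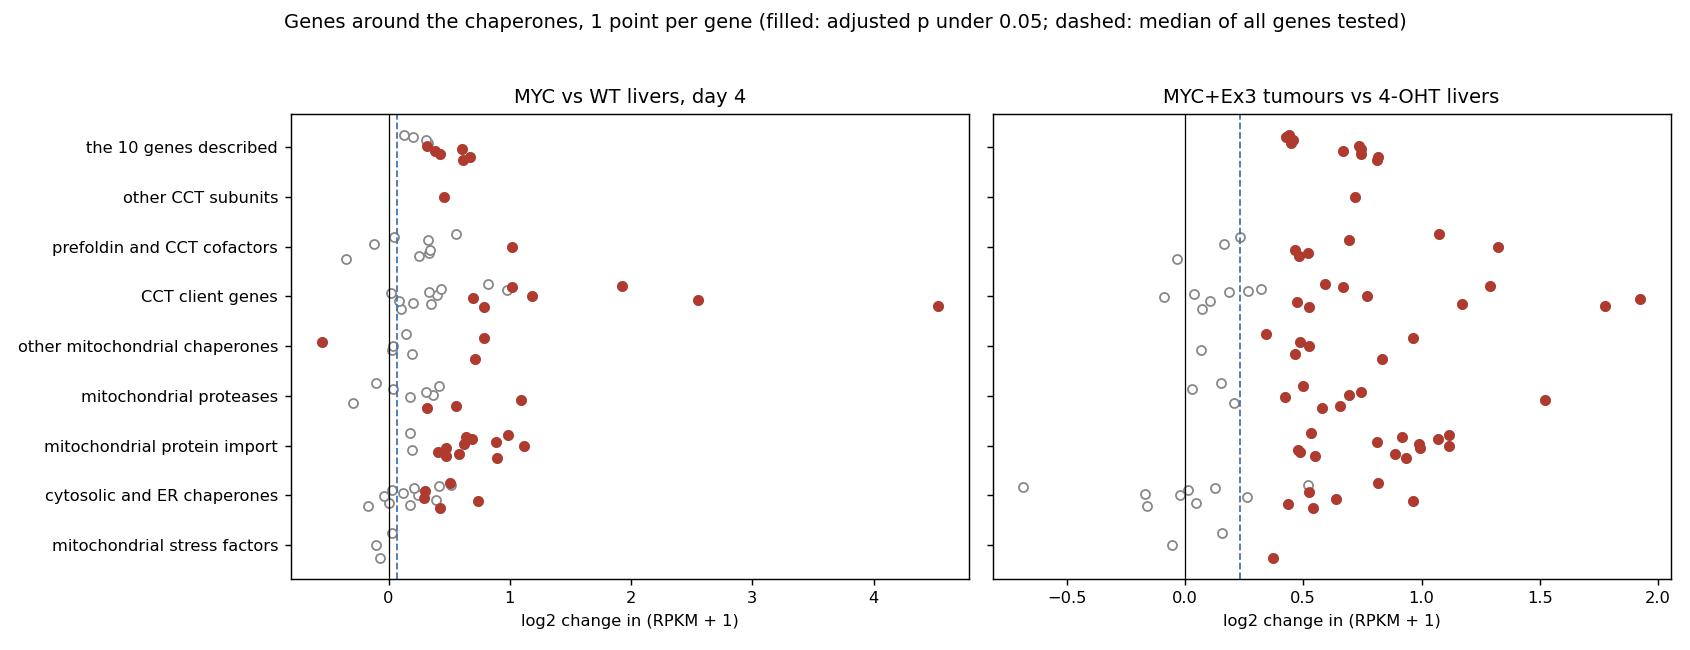
Log2 change of each gene of the 8 lists and of the 10 members, for MYC livers and MYC+Ex3 tumours (1 point a gene, filled where it passed the test; dashed line: median of all genes). All 13 mitochondrial import genes lie to the right of that line in both panels.

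The authors' own comparisons called fewer members in each comparison of MYC or MYC+Ex3 with WT, at day 4 and in tumours, and 0 where limma called 0. In the authors' deposited table Cct2, Cct3 and Cct7 passed an adjusted p of 0.05 for MYC livers against WT, 3 of 10 members, and 5 passed for MYC+Ex3 livers against WT. Of all genes, 12.5% and 16.3% were called higher there in the authors' deposited table. The authors' deposited table had 0 for Ex3 livers, where it called 0.77% of all genes in either direction. For MYC tumours the authors' deposited table had 7 and for MYC+Ex3 tumours 9 (24.4% and 30.7% of all genes called higher). Where Ex3 was added to MYC, the authors' deposited table had 0 in livers and 0 in tumours. There it called 0.28% and 4.49% of all genes in either direction. The log2 changes in the authors' deposited table ran from 0.03 to 0.58 for MYC livers and from 0.24 to 0.65 for MYC+Ex3 tumours.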

How the data were processed

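Total RNA of 33 mouse livers and nodules was sequenced from strand-specific TruSeq libraries, per the labels' protocols. The submitters' processing notes list TopHat2 2.0.8, SAMtools, featureCounts 1.4.5-p1, DESeq2 and the build mm9, without their roles. The deposited values are RPKM, with the authors' log2 fold changes and adjusted p-values beside them. For 20485 of 21671 genes (the other 1186 were at 0) the deposited RPKM were whole multiples of 1 read within a tolerance of 0.0001, which gave reads and depth. Of the columns, 0 belonged to other series.

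Two-sided tests were run in limma 3.58.1 (R 4.3.3, eBayes with trend) on log2(RPKM + 1), over genes with an RPKM of at least 1 in at least 3 libraries. The 20 day 4 livers and the 13 samples of the tumour arm were fitted separately, and p-values were adjusted by Benjamini-Hochberg over all genes. The script was tested on simulated data. Replicate numbers only name samples, and the labels do not say that each came from a separate animal, so p-values measure the spread between samples. Alternatives were a pseudocount of 0.1, filters, scaling, sex, depth, the keratin sets, the title sets of the 4-OHT livers and leaving out each library. Depth as a term, quantile normalization and values per reads in genes were chosen after seeing the data. Members and gene lists were chosen with earlier results of these data known. The lists are other CCT subunits, prefoldin and CCT cofactors, CCT clients, other mitochondrial chaperones, mitochondrial proteases, mitochondrial import, cytosolic and ER chaperones, and mitochondrial stress factors. All members are named, and from each list the largest rise and fall among called genes in MYC livers and MYC+Ex3 tumours, and each gene of a list of 3 or fewer.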

Additional observations from a re-analysis of the deposited data

Results flagged for a closer look

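3 of 50 sets of values (1 member in 1 group) held a sample far from the others, where chance gives about 1 in 20. Tcp1 was 53.2 RPKM in MYC liver replicate 5, and the nearest of its group was 66.2. Cct4 was 88.8 RPKM in MYC+Ex3 liver replicate 3, next to 80.9. Cct7 was 35.0 RPKM in MYC+Ex3 liver replicate 5, next to 37.5.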

How the results depend on the processing

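Rescaling by the median ratio called 3 members in place of the 6 called on the deposited scale, for MYC and for MYC+Ex3 livers against WT. In both tumour comparisons 6 were called in place of 10, after that rescaling and with the S14 4-OHT livers alone. The cause was not tested. Fitting only the groups compared called 4 members for MYC livers against WT and 7 for MYC tumours, where 1698 and 3844 of all genes were higher. Leaving out 1 library gave 4 to 9 calls for MYC livers against WT, 5 to 9 for MYC+Ex3 livers against WT, 5 to 6 against Ex3, and 7 to 10 for both kinds of tumour against 4-OHT livers. The comparisons with 0 calls had 0 under each alternative run. No called change reversed. Among changes that did not pass the test, 132 values over all settings changed sign, the largest of them 0.14 in size. No paired analysis was possible because replicate numbers follow the order of the records. The count test on recovered reads was not run. The compression of abundant genes limits how far changes of the most abundant members can be read.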
